A study of Gallus gallus with 3 samples.

Results

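MicroRNA (miRNA) abundance was ranked in the leg muscle of 14-day-old embryos of normal recessive White Rock chickens, a meat-type breed, to see which miRNAs dominate the signal and how stable their order is. Normal RNA was on 3 two-colour arrays, 1 pool of 3 embryos each, 9 female embryos in all, with skin and bone removed, and each array also carried RNA of the dwarf strain, whose growth hormone receptor gene has a deletion that normal birds lack. Only the normal channel was ranked, 3 of 6 pools in the series, labelled with Cy3 in pools 1 and 3 and with Cy5 in pool 2. All 542 chicken miRNAs on the array were ranked in each pool.

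MicroRNAs are short RNAs that pair with messenger RNAs, mainly through a seed of bases 2 to 8 at their 5′ end, and lower the output of those messengers. In skeletal muscle the myomiRs miR-1, miR-133, miR-206 and miR-499 are the best known, miR-1 and miR-206 as promoters of myoblast differentiation. An embryonic limb also holds dividing myoblasts, connective tissue, vessels, blood, nerve and cartilage, each with miRNAs of its own.

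The signal of a miRNA was the mean of its 6 spots minus the median empty spot of the channel, in linear intensity units, and its share was its percent of the summed miRNA signal of that pool. A signal depends on the probe as well as on the number of molecules, so the order given here is an order of hybridisation signals. Since pool 2 was the only normal pool in Cy5, pool and dye cannot be told apart. With n = 3 pools, the SD measures only the spread between them, dye included. No test was made, since the miRNAs were ranked on the same values that describe them.

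The target sequences of the miRNAs on which the ranking turns are printed as the array lists them, with the seed in capitals. They are the leading muscle miRNAs miR-206 and miR-1a, with miR-1b beside them as a near copy that stayed under 32, then further members of the leading group, and let-7k and miR-203 for their changing ranks.
miR-206: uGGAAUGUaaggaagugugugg
miR-1a: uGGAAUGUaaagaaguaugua
miR-1b: uGGAAUGUuaagaaguaugua
miR-1599: gGAGGGAGgaaaaaaaaaaa
miR-92: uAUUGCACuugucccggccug
miR-26a: uUCAAGUAauccaggauaggc
miR-199*: uACAGUAGucugcacauugg
miR-199b: cAGUAGUCugcacauuuggu
miR-125b: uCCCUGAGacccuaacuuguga
miR-1777: gUGGGCGGugcggggcggcg
let-7a: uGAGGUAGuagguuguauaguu
let-7k: uGAGGUAGuagauugaauaguu
miR-203: gUGAAAUGuuuaggaccacuug

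The 3 pools differed in overall brightness. The summed miRNA signal was 354499 in pool 1, 198233 in pool 2 and 697701 in pool 3. Empty spots had medians of 133.7, 36.1 and 170.2 in these pools. The spots of a miRNA agreed closely, with a median coefficient of variation (CV) over the 6 spots of 12.2%, 11.9% and 11.4%, among the miRNAs over the detection limit. Shares and ranks within a pool were therefore compared, and signals are given beside them.

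The study's limit of detection, a signal of 32, was passed by 125 miRNAs in pool 1 (23.1%), 90 in pool 2 (16.6%) and 142 in pool 3 (26.2%), and such miRNAs are taken as detected here. The mean was 119 ± 26.5 (SD, n = 3). The study's own signals were background-subtracted and normalised between channels, whereas 32 is applied here to unnormalised signals of single pools, so its counts are not on the same scale. There were 88 miRNAs over 32 in all 3 pools, 146 in at least 1 pool and 396 in none. There were 35 miRNAs over 32 in pools 1 and 3 but not in pool 2, while 19 were detected only in pool 3, 2 only in pool 1 and 2 only in pool 2. At the edge of the limit in pool 2, let-7k read 36.0 just inside and miR-196 read 31.3 just outside it. The limit is not equally strict in the channels, because the central 95% of single empty spots ranged from 90.4 to 201.8 in pool 1, from 33.3 to 39.7 in pool 2 and from 120.2 to 212.6 in pool 3. The upper ends of these ranges lay 68.1, 3.59 and 42.4 above the median, beyond 32 in pools 1 and 3 and far inside it in pool 2. With these values as the limit, a choice made after seeing the data, 105, 150 and 139 miRNAs passed it in pools 1, 2 and 3, and 102 in all pools, so that pool 2 had the most in place of the fewest.

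The signal was concentrated in few miRNAs. The brightest miRNA of each pool held 8.71%, 9.40% and 4.20% of the summed signal in pools 1, 2 and 3. The top 10 held 43.8%, 51.9% and 32.9%, with a mean of 42.8 ± 9.53% (SD, n = 3). The top 20 held 64.0%, 74.2% and 53.6%, with a mean of 63.9 ± 10.3% (SD, n = 3). Pool 2 was the most concentrated and pool 3 the least at each of these depths. Accordingly, 13, 10 and 19 miRNAs were enough to reach 50% of the signal in pools 1, 2 and 3, and 48, 33 and 56 to reach 90%. The share of the brightest miRNA was set by different miRNAs, miR-1599 in pools 1 and 3 and miR-206 in pool 2. The sequence of miR-1599 ends in a run of 11 A, which limits the reading of its signal, as given below. No alternative left miR-1599 out.

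**Figure D1:**
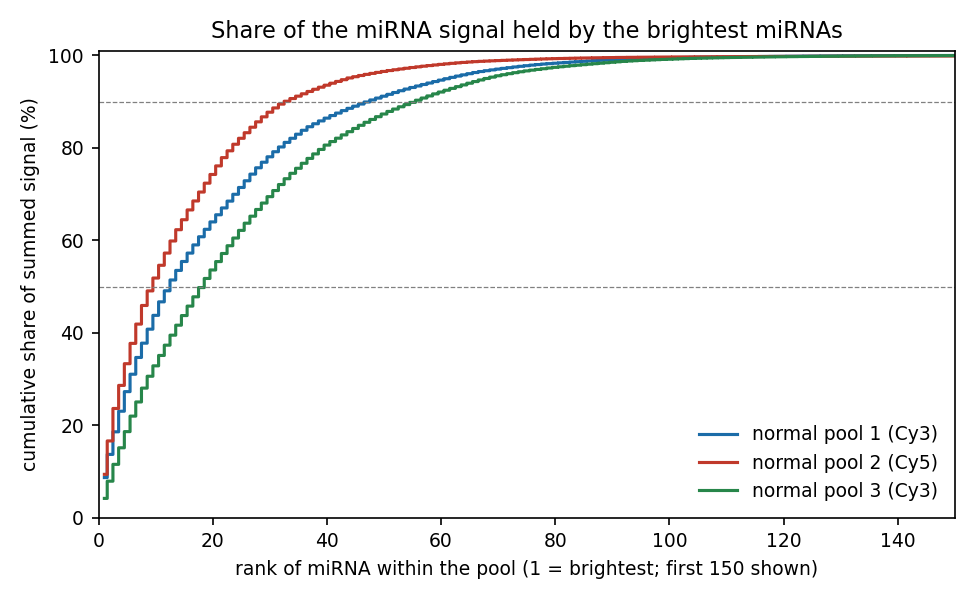
Cumulative share of the summed miRNA signal (%) against the rank of the miRNA within its pool, for the first 150 of 542 miRNAs, with dashed lines at 50% and 90%. The curve of pool 2 rises fastest and that of pool 3 slowest, and they reach 50% at 10 and 19 miRNAs.

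miR-206, which is largely restricted to skeletal muscle, had the largest mean share, 5.34 ± 3.53% (SD, n = 3). Its signal was 12852, 18639 and 20864 in pools 1, 2 and 3. It ranked 7th, 1st and 8th, so that its lead rested on pool 2, and without that pool its mean share was 3.31% and miR-1599 came first at 6.45%. miR-1a, the other leading myomiR, had signals of 15787, 9304 and 25983 and ranks of 4, 5 and 2. Its mean share was 4.29 ± 0.50% (SD, n = 3), and its share varied over pools with a CV of 11.8%, against 66.2% for miR-206. miR-1a was thus among the steadiest of the leading miRNAs, and miR-206 had the widest spread of share among the top 20.

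The remaining myomiRs were far down the order. The miR-133 family, which in mouse acts on serum response factor in myoblasts, was led by miR-133c, with signals of 3888, 1639 and 9085 and ranks of 31, 32 and 32. miR-133b read 1431, 234 and 4762, and miR-133a read 1405, 339 and 4306, with ranks between 46 and 61 in all pools. miR-499, which RefSeq places within the myosin gene MYH7B, read 396, 75.2 and 4836, and ranked 78th, 78th and 45th. In pool 3 alone it lay near the other myomiRs, and its mean share was 0.281% over all pools and 0.0749% without pool 3. The mean share of miR-133b was likewise 0.402% over all pools and 0.261% without pool 3.

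Of 8 myomiRs on the array, 6 were over 32 in every pool, and miR-1b and miR-1c in none. Of all 542 miRNAs on the array, 88 were over 32 in every pool and 396 in none. miR-1b shares the seed of miR-1a and differs from it by an edit distance of 1, a single changed base, yet its signal was -22.9, 3.23 and -18.8. miR-1c was at -34.2, 0.0017 and -38.8. The signals of miR-1a and miR-1b were thus far apart in every pool, although their printed sequences are alike but for that base. As a group, the myomiRs held 10.1%, 15.3% and 10.01% of the signal in pools 1, 2 and 3, and 45.3% of the group's share was in miR-206. The defining miRNAs of the labelled tissue, skeletal muscle, were thus detected in every pool, apart from miR-1b and miR-1c.

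miR-1599 was second by mean share, 5.17 ± 3.16% (SD, n = 3). It was the brightest miRNA in pools 1 and 3, at 30867 and 29315, but 13th in pool 2, at 5179. Its Cy5 pool lay far below both Cy3 pools, and without pool 1 its mean share was 3.41%. Its sequence ends in a run of 11 A, the longest on the array, where the next longest runs were 5. The labelling protocol adds a poly(A) tail to the RNA, and the part of that tail in the signal of miR-1599 was not tested. In the RefSeq gene table, 506 miRNAs of the array had an entry, and miR-1599 was the only entry that was not of the miRNA type.

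Next came miRNAs with broad roles in growing tissue. miR-92, a member of the miR-17-92 cluster, which is known for promoting cell proliferation, read 17755, 13914 and 21375 and ranked 2nd, 3rd and 7th. miR-26a, which in mouse promotes myoblast differentiation through the methyltransferase Ezh2, read 15011, 14325 and 24395 and ranked 5th, 2nd and 5th. These miRNAs held 5.03 ± 1.98% and 4.99 ± 1.98% of the signal (SD, n = 3), and were in the top 7 of every pool. miR-125b, which in mouse restrains myoblast differentiation through insulin-like growth factor 2, read 13344, 8269 and 23393 and ranked 6th, 7th and 6th. Its range of 1 rank was the narrowest of the top 20, and its share varied least, with a CV of 10.9%.

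The mesenchymal miR-199 group held 2 of the leading places. In mouse and human, miR-199 and miR-214 come from a transcript antisense to DNM3, and RefSeq places a chicken copy within DNM3, with miR-214 within 10 kb of it. miR-199* read 10366, 9890.1 and 24988 and ranked 11th, 4th and 4th. miR-199b read 10580.6, 8708 and 25379.5 and ranked 10th, 6th and 3rd. The pair followed each other closely over the pools. Their sequences share a run of 16 bases although the seeds differ, because miR-199b is printed with a later start. A RefSeq entry within DNM1 matched both, besides another entry for each. Whether their signals are separate measurements, and the 2 places thus 2 miRNAs, was not tested. The opposite strand, miR-199, read 938, 320 and 3589, and miR-214 read 53.1, 3.21 and 56.0, so that miR-199* was the brighter arm of its hairpin in every pool.

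The rest of the top 20 held between 1.80% and 3.69% of the signal each. miR-1777 read 17317, 7979 and 15049.9 and ranked 3rd, 8th and 14th. Its sequence is 90% GC, and its 6 spots in pool 2 had a CV of 34.4%, where the median of the top 20 in that pool was 10.1%. miR-1576, which is 85.7% GC, read 10733, 3838 and 10858 and ranked 9th, 17th and 26th. Both GC-rich miRNAs ranked higher in pool 1 than in the other pools, while let-7a, of the family that times development and differentiation, held 13th, 9th and 9th with signals of 8291, 6252 and 17915. miR-181b, whose family in mouse acts on Hoxa11 during myoblast differentiation, read 8464, 5467 and 13931 and ranked 12th, 11th and 18th.

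The remaining 8 were miR-20a, miR-17-5p and miR-106 of the miR-17 family, let-7c, let-7f, miR-30c, and miR-16 and miR-16c, of a family that restrains the cell cycle. miR-20a read 6832, 5507 and 15514, and miR-17-5p, from the same cluster, read 7336, 5239 and 15084. Their ranks lay between 10 and 15 in all pools, and miR-106, at 5239, 4271 and 12795.5, lay between 15 and 22. let-7c read 6248, 4205 and 15657, and let-7f read 5718, 3541 and 15713, so that both were highest in pool 3, where they ranked 11th and 10th. miR-30c read 6265, 4838 and 12666 and ranked 17th, 14th and 21st. Each of these 3 ranked 18th or lower in at least 1 pool. miR-16 read 5228, 3805 and 14530.0, and miR-16c read 5088, 3826 and 14278. They ranked 25th, 19th and 15th against 27th, 18th and 16th, and were nearly level in every pool.

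**Figure D2:**
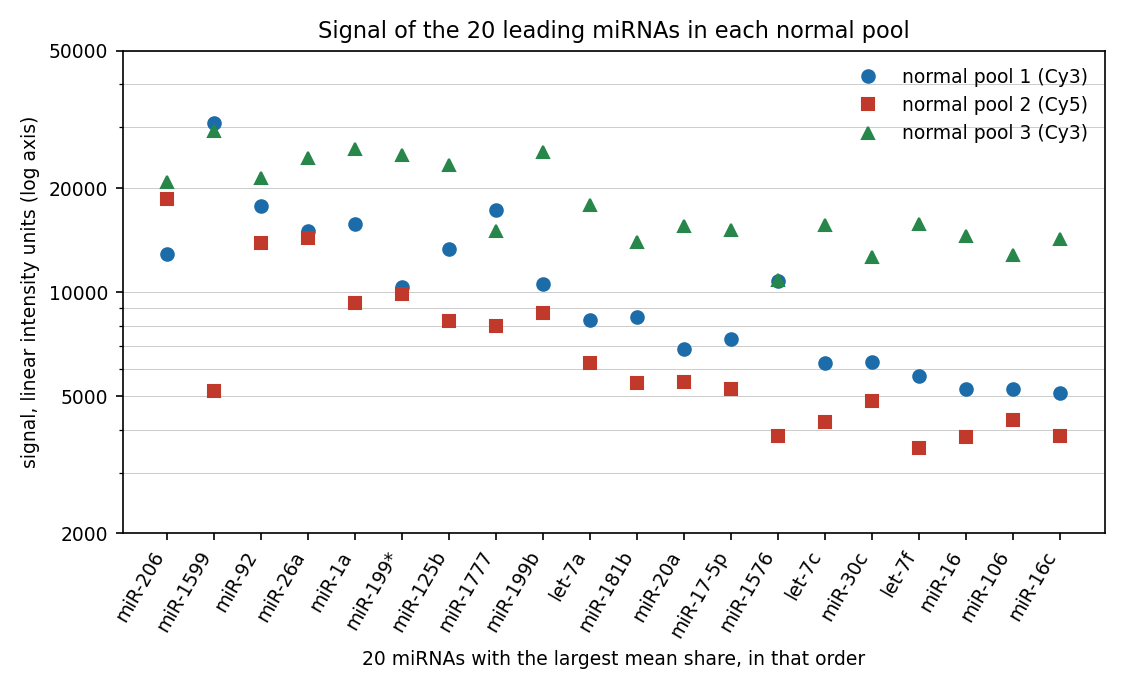
Signal of the 20 miRNAs with the largest mean share in each normal pool, on a log axis in linear intensity units, with 1 point per pool (the mean of 6 spots). Pool 3 gave the highest signal for 18 of the 20 and pool 2 the lowest for 19, and miR-1599 in pool 2 lies far below its value in pools 1 and 3.

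Each pool's list was compared with the others. The top 20 lists shared 14 miRNAs in all 3 pools and held 25 different miRNAs in all. The top 10 lists shared 6 of 14, namely miR-206, miR-92, miR-26a, miR-1a, miR-125b and miR-199b. The top 5 lists shared only miR-26a and miR-1a, of 8. At the lower end of the list, miR-16c in place 20 had a mean share of 1.80%, and miR-203 in place 21 had 1.74%.

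Rank agreement between pools was higher over the whole range of signals than within the top 20. A narrow range of signals, as in the top 20, by itself lowers such measures, so they do not show a less stable top. Over the 146 miRNAs detected in at least 1 pool, Spearman's rho was 0.895 between pools 1 and 2, 0.962 between pools 1 and 3 and 0.906 between pools 2 and 3, across miRNAs, which are not independent replicates. The pair with the same dye, pools 1 and 3, had the highest value over these 146 but the lowest within the top 20. The mean of the 3 values was 0.921, and over all 542 miRNAs, 396 of them not over 32 in any pool, it was 0.790. Within the top 20, rho was 0.705, 0.595 and 0.623 in the same order of pairs. The SD of the log2 ratio of signals was 0.62, 0.52 and 0.53 there. Among all miRNAs over 32 in both pools of a pair it was 1.16, 0.84 and 1.25. Kendall's W, a measure of concordance that is 1 for identical orders, was 0.947 over the 146 and 0.761 within the top 20.

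Neighbours in the top order could seldom be separated. Of 20 steps from each place to the next, 1 had the same direction in all 3 pools, that from miR-199b to let-7a. The mean difference of share there was 0.98 percentage points with an SD of 0.31 between pools, and it was the only step whose difference exceeded its SD. Of the 190 pairs that the top 20 can form, 112 (58.9%) kept the same order in all pools. The median range of ranks was 7 places within the top 20 and 11 among the 88 miRNAs detected in every pool. Over pools the share had a median CV of 18.6% within the top 20 and 44.3% among the other 68. In comparison, the median CV between spots of the top 20 was 9.43%, 10.1% and 6.69% in pools 1, 2 and 3.

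Pool 2 stood apart from pools 1 and 3 in a way that followed brightness. Its share exceeded the average of the other pools for 26 of 88 miRNAs, and the median shift was -0.56 on the log2 scale. Across the 88 miRNAs the shift had a Spearman's rho of 0.632 with the mean log2 signal over all pools. Because pool 2 enters both sides of that value, it was also computed with the signal of pools 1 and 3 alone, and was 0.537. With the GC content of the miRNA it was -0.10. The 12 miRNAs of 65% GC or over had a median shift of -1.13, with 1 above 0. The median was -0.62 under 45% GC, -0.52 from 45% to under 55% and -0.31 from 55% to under 65%. Between pools 3 and 1, both in Cy3, the log2 ratio of shares had a rho of -0.38 with GC content. By brightness, pool 2 gave relatively more to the bright miRNAs and less to the dim. The part of the dye in this was not tested.

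**Figure D3:**
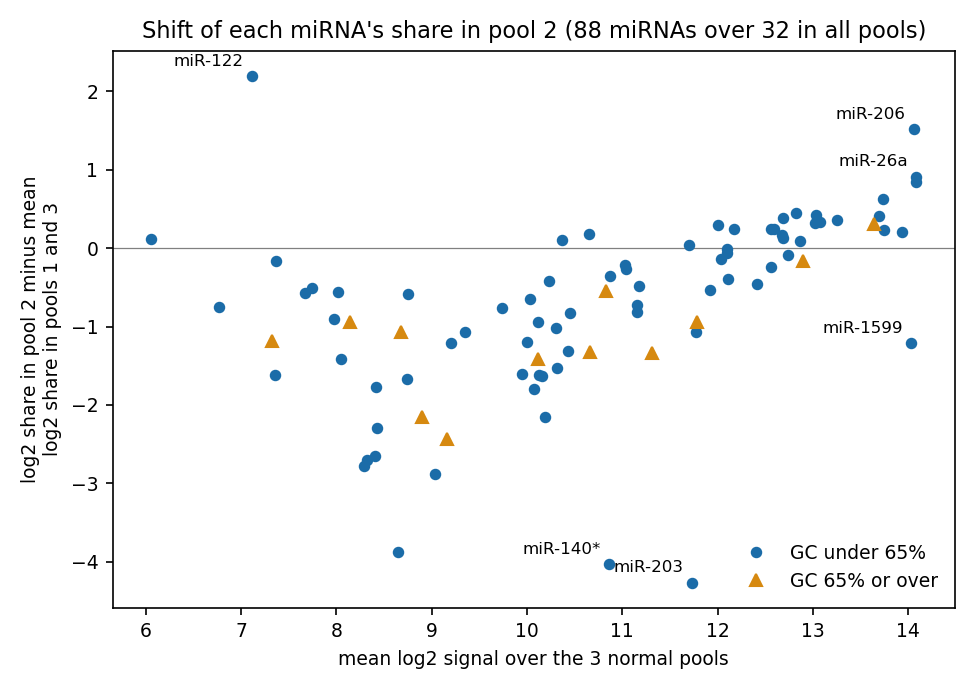
Shift of share in pool 2, as its log2 share minus the mean log2 share in pools 1 and 3, against the mean log2 signal, for the 88 miRNAs over 32 in every pool, with miRNAs of 65% GC or over as triangles. The shift lies above 0 for 26 miRNAs, most of them at the right, and miR-203, miR-140* and miR-1599 lie far below others of like signal.

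The 6 widest ranges of rank among the 88 included 3 miRNAs known from other tissues, miR-203, miR-140* and miR-122. miR-203, an epidermal miRNA that limits the renewal of skin progenitors in mouse, read 10961 in pool 1, 257 in pool 2 and 14021 in pool 3. It ranked 8th, 58th and 17th, with spot CVs of at most 9.51%. Its mean share was 1.74% over all pools, 1.07% without pool 1 and 2.55% without pool 2. miR-140*, from the cartilage miRNA gene that lies within WWP2, read 4263, 157 and 9651 and ranked 29th, 66th and 30th. Both were dim in pool 2 only.

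miR-122, the liver miRNA, went the other way, reading 58.4, 207 and 220.0 and ranking 108th, 63rd and 106th. The 58.4 in pool 1 lay inside the central 95% of single empty spots, whose upper end was 68.1 above their median. The share of miR-122 without pool 2 was 0.0240%, against 0.0508% over all pools. let-7k read 537, 36.0 and 3301 and ranked 73rd, 90th and 55th, with a mean share of 0.214% over all pools and 0.0848% without pool 3. miR-2131 read 69.6, 38.0 and 111 and ranked 105th, 89th and 118th, and its spot CV of 217% in pool 2 shows that its rank there rests on unequal spots. miR-499, given with the myomiRs, was the remaining member of the 6.

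**Figure D4:**
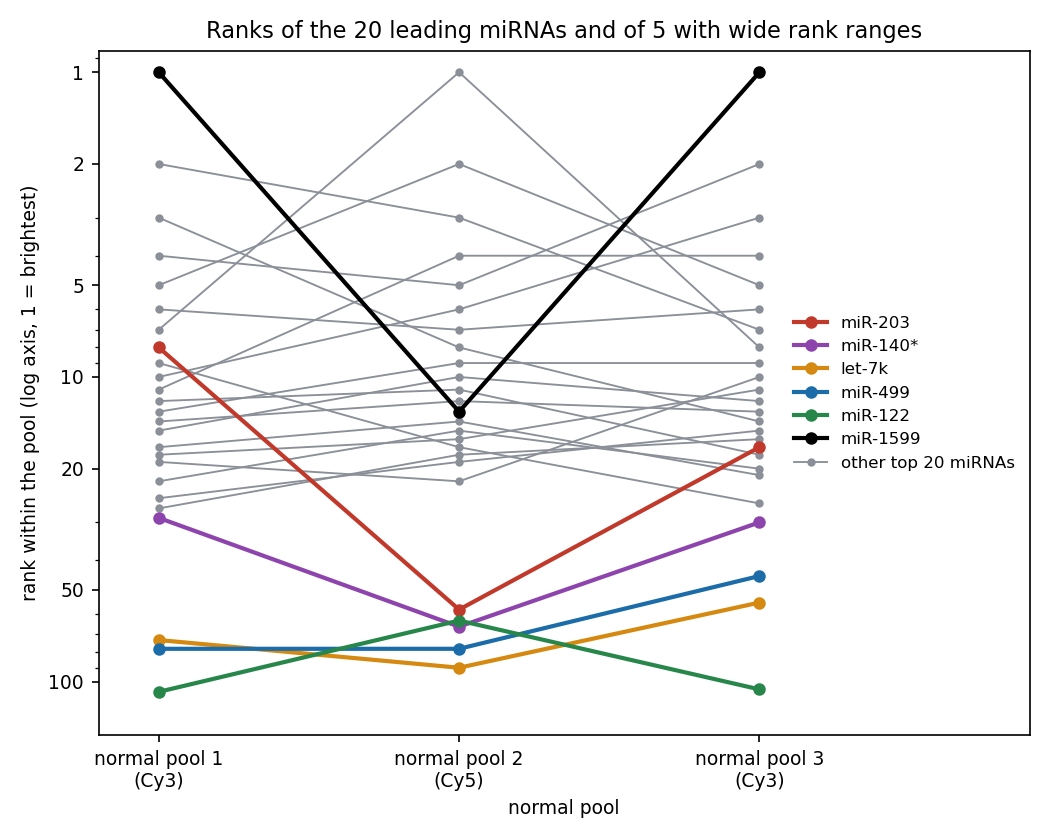
Rank within each normal pool on a log axis, with 1 at the top, for the 20 leading miRNAs (grey, miR-1599 in black) and for 5 miRNAs with wide ranges of rank in colour. The grey lines cross often but stay within the first 27 ranks, whereas miR-203 goes from 8th to 58th and 17th.

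The signal was also summed over lists of related or tissue-specific miRNAs. For comparison with their counts, 88 of all 542 miRNAs on the array were over 32 in every pool. The miR-17-92 cluster and its paralogs, 10 miRNAs of which 7 were over 32 in every pool, held 12.2%, 16.6% and 11.3% in pools 1, 2 and 3. The 8 let-7 miRNAs, all over 32 in every pool, held 7.66%, 9.38% and 11.0%. The mesenchymal list of 5 held 7.08%, 10.1% and 9.42%, with miR-199* and miR-199b both counted. Together with the myomiRs, these were the 4 lists with the largest mean shares. The list of Hox cluster miRNAs and those linked to let-7 held 4.81%, 4.82% and 5.96%. Of this, miR-125b made up 72.4%, with miR-100 next at ranks of 42, 41 and 37. RefSeq places a copy of miR-125b in the same gene as miR-100 and a copy of let-7a. In the same list, miR-10a and miR-10b together had a mean share of 0.219%, and miR-196 had 0.159%.

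Smaller families were carried by 1 or 2 members. The miR-15 and miR-16 list held 3.71%, 4.27% and 5.30%, and the miR-181 list 3.76%, 3.92% and 3.08%. miR-181a read 4867, 2308 and 7565. The miR-30 list held 2.34%, 2.70% and 2.70%, of which miR-30c made up 77.7%, while miR-30d read 637, 216 and 2021. miR-23b read 5471, 2925 and 13750.4, and miR-24 read 996, 422 and 2747, in the list of miR-23, miR-24 and miR-27, which held 1.98%, 1.72% and 2.53%. miR-26a stood alone in its list, since miR-29a, miR-29b and miR-29c were over 32 in no pool. miR-103 and miR-107, which RefSeq places within pantothenate kinase genes, were nearly level, at 1746, 1023 and 5080 against 1576, 862 and 4850, and ranked between 35 and 47.

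Markers of other cells differed widely in signal. No member of the nerve list (7 on the array, with miR-124a and miR-124b) or of the pancreas and endocrine list (6, with miR-216 and miR-375) was over 32 in any pool. Of all miRNAs on the array, 396 of 542 were likewise over 32 in no pool, so lists this small say little about these cells. The endothelial list held 1.73%, 1.67% and 2.32%, led by the vessel miRNA miR-126, which lies within EGFL7, at 3509, 2357 and 10144. miR-221 of that list read 1428, 429 and 3305. The share of the vessel miRNAs thus varied less over the pools than that of the lists that follow.

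Blood cell miRNAs gave little signal. miR-451, which marks red blood cells, read 1269, 515 and 4172, and miR-2188 read 261, 89.7 and 676. The 3 red cell miRNAs held 0.432%, 0.305% and 0.695%, and miR-144 was over 32 in no pool. The 8 white blood cell miRNAs held 0.452%, 0.165% and 0.788%. Of these 8, 1 was over 32 in every pool, against 88 of all 542 miRNAs. miR-146c led the white cell list at 1144, 255 and 3295, and miR-146a read 306, 15.5 and 1394. The mean share of miR-146a was 0.0980% over all pools and 0.0471% without pool 3. miR-223 held 0.0283%, 0.0107% and 0.0594% in pools 1, 2 and 3, and was over 32 in some pools but not in all. miR-142-3p and miR-142-5p were over 32 in no pool. The mean white cell share was 0.468% over all pools and 0.308% without pool 3.

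Epithelial and cartilage miRNAs differed widely between pools. The 7 epithelial miRNAs held 4.14%, 0.141% and 2.81% in pools 1, 2 and 3, with 6, 1 and 6 members over 32. Of all 542 miRNAs, 125, 90 and 142 were over 32 in these pools. Next to miR-203, miR-205a read 2129, 6.17 and 2424. The mean share of the list was 2.36% over all pools, 1.47% without pool 1 and 3.47% without pool 2. For miR-205a it was 0.317%, 0.175% and 0.474% in the same order. The 4 cartilage miRNAs held 1.60%, 0.249% and 2.26%, and of these miR-455-3p read 1087, 255 and 4542, with a mean share of 0.362% over all pools and 0.217% without pool 3. Both lists were lowest in pool 2, the only normal pool in Cy5, so pool and dye cannot be told apart here. In a bulk sample, fewer cells of a type and less RNA per cell cannot be told apart, and the part of remaining skin or cartilage was not tested.

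**Figure D5:**
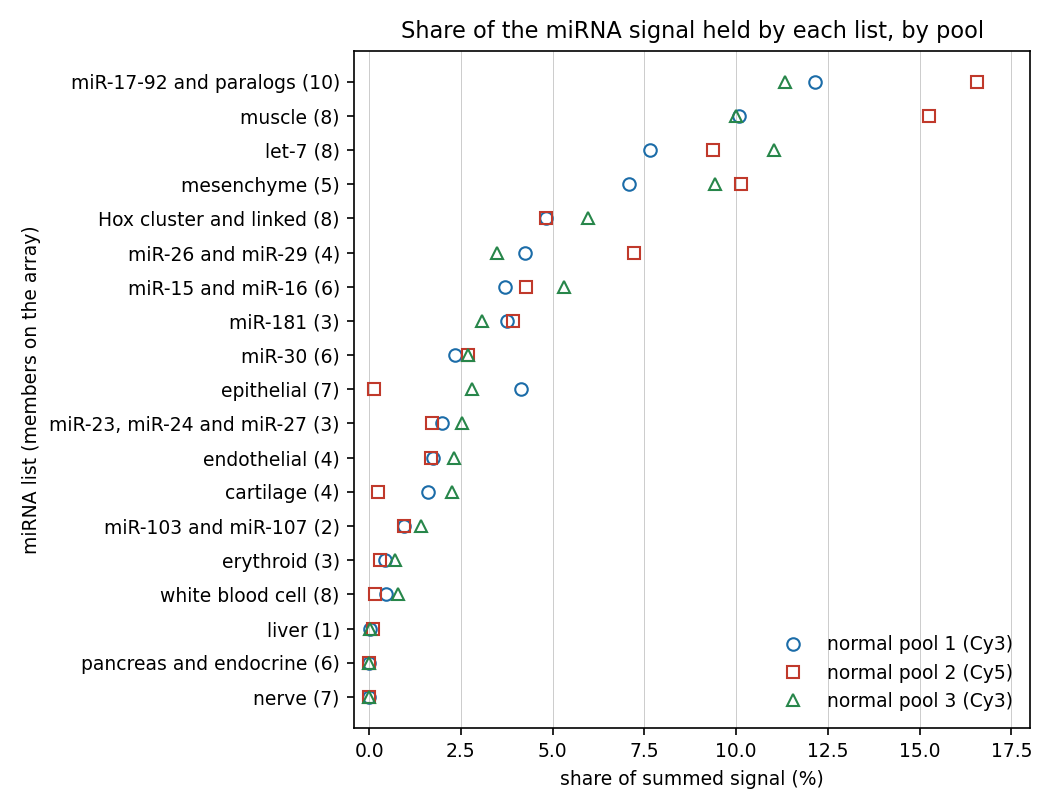
Share of the summed signal (%) held by each list of miRNAs in each normal pool, with the number of members on the array in brackets. The miR-17-92, muscle, let-7 and mesenchymal lists lead, and the epithelial list ranges from 0.141% in pool 2 to 4.14% in pool 1.

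The miRNAs were also grouped by their seed, a step that by itself cannot lower the share of the leading groups. The 146 miRNAs detected in at least 1 pool had 112 seeds, and 16 seeds were shared by 50 of them, which held 46.4% of the signal on average. The seed GGAAUGU of miR-206 and miR-1a held 8.08%, 14.1% and 6.71%. The let-7 seed GAGGUAG held 7.66%, 9.38% and 11.0%. The seed AAAGUGC of miR-20a, miR-17-5p, miR-106 and miR-20b held 6.92%, 9.46% and 7.97%. The muscle seed was first in pool 2 and the let-7 seed in pool 3. In pool 1 the seed of miR-1599 alone held more than either, at 8.71%. The limits given above for the signal of miR-1599 hold for its seed as well. The 5 leading seeds held 37.3% on average, and the top 20 miRNAs had 14 different seeds.

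Near-identical sequences bear on how separate these ranks are. Of 24 pairs of detected miRNAs or myomiRs with an edit distance of at most 2, 19 were over 32 in both members in every pool. For 10 of the 19 the median ratio of their signals was under 1.5, and for 4 it was over 3. The signal of let-7a over that of let-7c was 1.33, 1.49 and 1.14 in pools 1, 2 and 3. The signal of let-7a over that of let-7k was 15.4, 173 and 5.43. The gap did not follow the number of changed bases in every pair. The ratio of let-7f over let-7k, at an edit distance of 1, was 10.6, 98.2 and 4.76. That of miR-16 over miR-16c, at a distance of 2, was 1.03, 0.99 and 1.02. Among the 4 with a median ratio over 3, however, let-7f and let-7k were the only pair at a distance of 1. Cross-hybridisation between near copies was not tested.

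Of all miRNAs on the array, 146 of 542 (26.9%) were detected in at least 1 pool. Among miRNAs with a number of 1000 or more, these were 54 of 375 (14.4%), against 92 of 167 (55.1%) of let-7 and the lower numbers. The numbered 1000 or more held 28.2%, 14.9% and 17.9% of the signal, and 3 of them were in the top 20, miR-1599, miR-1777 and miR-1576. Each of these 3 had a higher share in pool 1 than in pool 3. Of miRNAs with 65% GC or over, 22 of 63 (34.9%) were detected in at least 1 pool, and they held 13.8%, 8.07% and 7.83%. The share detected was 29.2% under 45% GC, 30.2% from 45% to under 55% and 13.4% from 55% to under 65%, with no steady trend. GC content itself had little relation to signal among the 146, with Spearman's rho of -0.02, -0.01 and -0.17 in pools 1, 2 and 3, across miRNAs.

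Star strands, the usually discarded arm of a hairpin, made up 77 of the 542. Of these, 10 were over 32 in at least 1 pool and 2 in all, miR-199* and miR-140*, each brighter than the partner arm in 3 of 3 pools. Next in brightness, miR-1668* read 122, 10.4 and 177. Together the star strands held 4.20%, 5.15% and 5.08% of the signal, most of it in miR-199*.

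In the RefSeq gene table of assembly GRCg7b, used for names and neighbours only, 13 of the top 20 lay within 10 kb of another detected miRNA. That share was not computed for the other detected miRNAs, so it cannot be read as particular to the top 20. Some neighbours ranked alike and others did not. miR-206 lies near miR-133b, and their ranks were 7, 1 and 8 against 50, 61 and 46. miR-1a lies near miR-133a within MIB1, with ranks of 4, 5 and 2 against 52, 52 and 48. In the cluster within GPC5, miR-92, miR-20a and miR-17-5p were among the first 15 of every pool, while miR-19b ranked 71st, 82nd and 75th and miR-18a ranked 92nd, 73rd and 93rd. RefSeq gives miR-1a, miR-133a, miR-92 and miR-19b a further copy outside these places, and a signal does not tell the copies apart.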

How the data were processed

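Total RNA was size fractionated, given a poly(A) tail and a dye tag, and hybridised to arrays of chicken miRNA probes. The labels name a Norgen kit for extraction and the methods of the study name TRIzol. The authors deposited linear intensities, for each channel the average density over a spot, read with a GenePix scanner and Array-Pro and without background subtraction. Their unit was recorded as other because commas stand inside the numbers, and the commas were removed. The authors' log2 ratios per miRNA, which compare the strains, were not used.

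Of the 3968 spots on an array, 3252 hold miRNA probes and 424 hold none. The median empty spot of the normal channel was subtracted from the mean of 6 spots, and negative values counted as 0 in sums. Shares, ranks, Spearman's rho and Kendall's W were computed in Python 3.11.15 with pandas 2.3.3. Simulated data were used to test some of the steps, but not the ranks, the rho between pools or Kendall's W. Array precision is limited by the number of arrays, 3. Loess, Aquantile and normexp alternatives (offset 50) came from limma 3.58.1 in R 4.3.3. The alternative with loess and Aquantile also used the dwarf channel of each array.

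Named miRNAs were the 20 with the largest mean share, all myomiRs, the 6 with the widest range of rank among those over 32 in all pools, the 2 brightest of every other list and the 3 brightest star strands. Any other miRNA was named after its values were seen. The members, lists and named miRNAs were chosen with earlier results of these data known. Alternatives were no subtraction, normexp, the median of spots, loess with Aquantile, limits of 16 and 100 and other sets of miRNAs for rho. Others kept only the brightest of near-identical sequences, left miRNAs at 32 or lower out of the sum, or left out each pool. A limit set from the empty spots of each channel was added after seeing the data. RefSeq names were matched for 51 of the 52 named miRNAs.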

Additional observations from a re-analysis of the deposited data

Results flagged for a closer look

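Control spots that entered no ranking gave signals in the normal channels. The brightest of 6 control probes for 5S ribosomal RNA, gga-5S-b3, had a mean signal of 49240.0 over the 3 pools, with 48627, 52447 and 46646 in pools 1, 2 and 3, above every miRNA. The brightest spike-in control name, a2-PUC2PM-20B, had a mean signal of 46889, and 17 of 43 spike-in names had a mean over 32. In pool 2, 1 of the 424 empty spots read 549.6, where the next brightest empty spot read 41.5. The median of the empty spots, which was subtracted, is little moved by it. With 3 pools, no group was large enough for a check of single samples that stand apart.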

How the results depend on the processing

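The shares of the top 1, 10 and 20 moved by less than the spread between pools. The number of miRNAs that hold 50% of the signal moved by less than 1.5 times. This held without subtraction, with the median of spots, with loess and Aquantile and with dim miRNAs left out. It also held with only the brightest of near-identical sequences kept, where the others left the sum too. The top 20 share of 63.9% was 56.9% without subtraction and 71.4% with only the brightest kept, against an SD of 10.3 between pools. Normexp gave the main values again, but the median empty spot was still subtracted after it, so that this agreement says nothing about stability. Leaving out 1 of 3 pools cannot move a mean by as much as the SD of the 3, so those values say nothing about stability by that measure. Values that 1 pool decides are given in the report. The mean Spearman's rho of 0.921 moved to 0.790 over all miRNAs on the array, and ranged from 0.895 to 0.960 when each pool was left out, highest without pool 2. Without subtraction of the empty spots all 542 miRNAs were over 32, in each pool and in all pools, since the empty spots themselves read over 32. miR-206 had the largest mean share under each alternative in which the order was recomputed, except without pool 2, when miR-1599 led. With loess and Aquantile, the number over 32 in all pools was 104 in place of 88, and the SD of the top 20 share was 3.27 in place of 10.3. Aquantile gives the arrays a common distribution of average intensity, so that a smaller SD follows in part from the method. Of 52 named miRNAs, 42 kept their mean share within 1 SD without subtraction, 51 with the median of spots and 46 with loess and Aquantile. With the upper end of the central 95% of empty spots as limit, added after seeing the data, 131.3 miRNAs per pool passed on average, with pool 2 highest at 150 in place of lowest at 90. No paired analysis was possible because the report holds 1 group. Precision is limited by the 3 arrays.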
